A study of Mus musculus with 6 samples.

Results

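The genes described here carry glucose into the cell, break it down to pyruvate and lactate, and store or release it as glycogen. They were taken from a list of 39 genes by annotation alone, as every probe set of the Affymetrix Mouse430_2 array annotated to exactly 1 gene of the list. Of the 39, 36 had such a probe set, out of 18194 genes with one on the array, and 32 had at least 1 probe set above the brightness filter used for testing. RNA abundance was measured in heart tissue of mice on 6 arrays, 3 per group. The first group was C57BL/6 mice overexpressing hAT1R (the human angiotensin II receptor type 1, through which angiotensin II acts on heart and vessels), and the second was normal C57BL/6 mice without the transgene. No other allele or agent is named for either group. The submitters' text says that samples were matched for age and gender, and gives no promoter for the transgene, no line, no age and nothing on pooling.

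Glucose enters heart muscle cells through GLUT4 (Slc2a4), which insulin moves to the surface, and GLUT1 (Slc2a1), and is trapped by a hexokinase. Phosphofructokinase sets the pace of glycolysis, and the product pyruvate either becomes lactate or enters mitochondria under the control of pyruvate dehydrogenase kinases. Many of these steps have a form typical of striated muscle and another typical of other or fetal tissue. Glycogen is built by glycogenin, glycogen synthase and branching enzyme and broken down by glycogen phosphorylase.

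Differences between the labelled transgenic and non-transgenic hearts were small, and no member passed the test over all probe sets. The platelet-type phosphofructokinase Pfkp, the brain-type glycogen phosphorylase Pygb, the hexokinase Hk1 and the regulator Pfkfb4 were higher on every labelled transgenic array than on any other array. Slc2a4, Pfkm, Eno3, Ldhb, Gys1, Pgk1 and Pygm were lower in the same sense. Changes of the 32 genes ran from -0.33 (Gys1) to 0.75 (Pfkfb4) on the log2 scale.

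Differences were tested with limma's moderated test over 22518 probe sets, adjusted by Benjamini-Hochberg and read at 0.05, and each gene is represented by its brightest probe set. Of the 65 member probe sets tested, none passed (0.218% of all probe sets did), and of the 32 member genes none passed (0.227% of 11016 genes did). The smallest adjusted p among members was 0.109, for Pygb. At an unadjusted p under 0.05, 4 members were higher (12.5%, against 10.4% of all genes) and 5 were lower (15.6%, against 7.76%). The groups did not overlap for 4 members with higher values (12.5%, against 14.3% of all genes) and for 7 with lower values (21.9%, against 10.9%). The same counts over member probe sets were 8 higher and 11 lower of 65 at an unadjusted p under 0.05 (12.3% and 16.9%, against 9.41% and 6.98% of all probe sets). Groups did not overlap at 9 and 15 of them (13.8% and 23.1%, against 13.2% and 9.78%). The share of members with higher values thus lay near the background, and that with lower values lay above it. The median change of the members was -0.06, against 0.01 for all genes, and 20 of 32 changes were negative.

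Which arrays were extreme differed from the genes at large. Labelled transgenic array 2 was the lowest of the 6 arrays for 13 of the 32 members, against 17.1% of all genes, and non-transgenic array 1 the highest for 11, against 23.9%. Without labelled transgenic array 2 the median change of the members was 0.02 in place of -0.06, and the count of lower members at an unadjusted p under 0.05 was 1 in place of 5. That count was also 1 without non-transgenic array 1, 2 without labelled transgenic array 3, 3 without non-transgenic array 3 and, with all arrays and Xist as a covariate, 1. The higher count was 2 without labelled transgenic array 3, in place of 4.

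**Figure D1:**
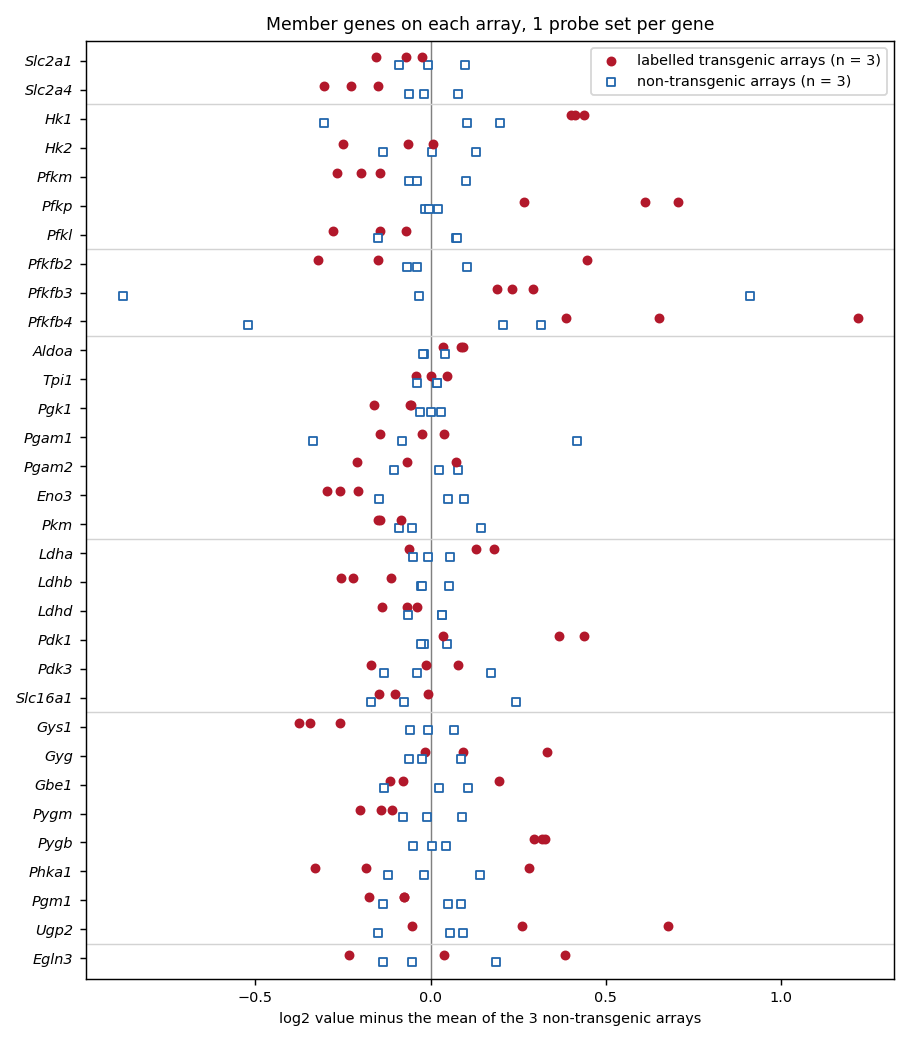
Log2 value of each member gene (1 probe set per gene) on each array, as the difference from the mean of the 3 non-transgenic arrays. Filled circles are the 3 labelled transgenic arrays, open squares the 3 non-transgenic arrays, and grey lines separate the roles. The circles lie apart from the squares to the right for 4 genes and to the left for 7.

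Facts of the arrays bear on all of these values. Groups follow the sample labels, whereas the instrument records of all 6 arrays carry a typed name with the opposite group's word, so "labelled transgenic" is written throughout and the direction rests on the labels. By these records, fluidics station 2 ran non-transgenic array 1 together with the whole labelled transgenic group, station 3 ran the other 2 arrays, and all labelled transgenic arrays were scanned first. Scan order and group therefore cannot be told apart. As station 3 ran no labelled transgenic array, a block for the station compares the labelled transgenic arrays with non-transgenic array 1 alone. Each change given with that block therefore rests on this array for the non-transgenic group. Xist, which marks female tissue, was above log2 6 on 2 labelled transgenic arrays and 1 non-transgenic array. The groups were thus not alike in this mark, although the submitters' text says that samples were matched for gender. Of the members tested, Pgk1, Phka1 and Pdk3 lie on the X chromosome. Array medians ran from 3.25 to 3.31, and Pearson correlations over probe sets from 0.9953 to 0.9967 within groups and from 0.9934 to 0.9961 between them. The labels do not tie arrays to separate animals, so each p-value here reflects the spread between 3 samples per group, which may be technical.

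Among transporters, Slc2a4 was at 11.75, 11.83 and 11.91 (log2 value) on the labelled transgenic arrays and at 12.14, 12.04 and 11.998 on the non-transgenic arrays. All labelled transgenic values lay below all others. The change was -0.23 ± 0.08 (SE), with adjusted p = 0.234, and the other Slc2a4 probe set was at -0.28, again without overlap. Slc2a1, the insulin-independent transporter GLUT1, was at 9.03, 9.12 and 9.16 against 9.18, 9.29 and 9.10, and the groups overlapped. Its change was -0.08 ± 0.08 (adjusted p = 0.657), with a 95% interval from -0.28 to 0.11, and its other probe sets were at -0.06 and 0.10. Slc2a3, the neuronal-type transporter GLUT3, had 4 probe sets, all below the brightness filter at log2 3.285, with means between 2.38 and 3.09 in both groups.

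Hexokinase phosphorylates glucose on entry, and Hk1 is the widely expressed form while Hk2 is the insulin-responsive muscle form. Hk1 was at 10.77, 10.75 and 10.74 on the labelled transgenic arrays and at 10.53, 10.44 and 10.03 on the others. The labelled transgenic values were close together, and non-transgenic array 3 lay well below its group. The change was 0.42 ± 0.14 (1.34-fold, adjusted p = 0.228), and the second Hk1 probe set was at 0.45, also without overlap. Hk1 was at 0.27 without non-transgenic array 3, and a block for the station gave 0.22. Hk2 was at 11.90, 11.72 and 11.98 against 12.10, 11.97 and 11.83, with overlap and a change of -0.10 ± 0.11 (adjusted p = 0.678), or -0.23 with a block for the station. A further probe set that lists Hk1 with other genes was not used.

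Phosphofructokinase is a tetramer of muscle (Pfkm), liver (Pfkl) and platelet (Pfkp) subunits. Pfkp was at 9.24, 9.68 and 9.59 on the labelled transgenic arrays and at 8.96, 8.97 and 8.997 on the others. The non-transgenic values spanned a far narrower range than the labelled transgenic ones, of which array 1 was the nearest to them. Its change was 0.53 ± 0.12 (1.44-fold, adjusted p = 0.138), and a second probe set was at 0.60 ± 0.15, while another lay below the filter. Pfkm was at 13.71, 13.59 and 13.66 against 13.96, 13.80 and 13.82, lower without overlap, at -0.20 ± 0.08 (adjusted p = 0.274). Pfkl was at 10.43, 10.29 and 10.50 against 10.64, 10.65 and 10.42, with overlap, at -0.16 ± 0.10 (adjusted p = 0.462).

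The Pfkfb enzymes make and remove fructose 2,6-bisphosphate, the strongest activator of phosphofructokinase. Pfkfb4, a form known as hypoxia-inducible, was at 4.33, 4.06 and 4.89 on the labelled transgenic arrays and at 3.88, 3.15 and 3.99 on the others. Its single probe set was dim and the gap between groups small beside the spread within them. The change was 0.75 ± 0.30 (adjusted p = 0.287). It was at 0.49 without non-transgenic array 2, and since that array lay below the filter level, the size is uncertain. Pfkfb2, the cardiac form, differed between its 4 probe sets, at -0.22, -0.01, 0.13 and 0.50. Only that at 0.50 had no overlap, and labelled transgenic array 3 was the highest of the group in each of them. Pfkfb3 was at 5.66, 5.71 and 5.77 against 6.39, 4.60 and 5.44. The non-transgenic values scattered on both sides of the narrow labelled transgenic range, and the change of 0.24 ± 0.42 (adjusted p = 0.828) became -0.67 with a block for the station.

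In lower glycolysis, Eno3, the muscle enolase, was at 14.07, 14.02 and 13.98 on the labelled transgenic arrays and at 14.38, 14.13 and 14.33 on the others. All labelled transgenic values were the lower ones, with a change of -0.25 ± 0.09 (adjusted p = 0.238). Pgk1, phosphoglycerate kinase, was lower without overlap in all 3 of its probe sets, at -0.09, -0.10 and -0.17, of which the brightest was at -0.09 ± 0.07 (adjusted p = 0.552). That probe set was at -0.10 with Xist as a covariate and at -0.06 without labelled transgenic array 2. The mutases Pgam1, the widely expressed form, and Pgam2, the muscle form, overlapped between groups at -0.04 ± 0.19 and -0.07 ± 0.10. Pgam1 was at 9.53, 9.41 and 9.59 against 9.22, 9.97 and 9.47, and Pgam2 at 12.88, 13.02 and 13.16 against 13.17, 12.99 and 13.12. Triose phosphate isomerase (Tpi1) was at 0.00 ± 0.06 and pyruvate kinase (Pkm) at -0.13 ± 0.08, with overlap in both. The Pkm probe set does not separate the splice forms of that gene here.

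Aldolase A (Aldoa) gave changes from -0.24 to 0.08 over 5 probe sets, and the brightest was at 0.07 ± 0.06 (adjusted p = 0.62). All 5 carry the suffix with which Affymetrix marks probes that can match other sequences, so they may count related transcripts and are uncertain. The same limit holds for the brightest Tpi1 probe set and for some of the Pgk1, Ldhb and Ugp2 probe sets, which carry that suffix too. The brightest probe sets of Pgk1, Ldhb and Ugp2 do not carry it. Aldoc, the brain aldolase, lay below the filter in both of its probe sets. Gapdh, the dehydrogenase of glycolysis, had only the manufacturer's 3 control probe sets annotated to it alone, which were left out of the fit. They were between 14.73 and 14.99 on the labelled transgenic arrays and between 14.68 and 15.04 on the others, differing by -0.03, -0.01 and -0.05 (2-sided exact permutation p = 0.7, 0.9 and 0.5). The 3' minus 5' difference of Gapdh, a gauge of RNA integrity, was 0.113 ± 0.003 (SD, n = 3) against 0.132 ± 0.028 (exact permutation p = 0.4). Eno1, Gpi1 and Pfkfb1 had no probe set under the annotation used and were not analysed here.

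Lactate dehydrogenase joins A subunits, typical of skeletal muscle, and B subunits, typical of heart. Ldhb was at 14.24, 14.13 and 14.10 on the labelled transgenic arrays and at 14.41, 14.33 and 14.33 on the others. No labelled transgenic value reached the non-transgenic range, here or in any of its 3 other probe sets, which were at -0.27, -0.24 and -0.19. The change of the brightest was -0.20 ± 0.07 (adjusted p = 0.26). Ldha was at 13.38, 13.14 and 13.33 against 13.25, 13.15 and 13.19, with overlap and a change of 0.08 ± 0.09 (adjusted p = 0.681). Ldhd, a mitochondrial enzyme that oxidises D-lactate, was at -0.08 ± 0.07.

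Pyruvate dehydrogenase kinases switch off the entry of pyruvate into the citric acid cycle. Pdk1 was at 10.88, 10.55 and 10.95 on the labelled transgenic arrays and at 10.56, 10.49 and 10.48 on the others. Array 2 of the labelled transgenic group lay just inside the non-transgenic range, and the others lay above it. The change was 0.28 ± 0.12 (adjusted p = 0.314), and the other tested probe sets were at 0.37, without overlap, and at 0.21. Pdk3 was dim, at 3.50, 3.34 and 3.59 against 3.38, 3.47 and 3.68, with a change of -0.04 ± 0.11. The monocarboxylate transporter Slc16a1, which moves lactate across the membrane, was at -0.08 ± 0.12 with overlap. Slc16a3, the lactate exporter of glycolytic tissue, lay below the filter, at 2.24 against 2.23. Egln3, an oxygen-sensing prolyl hydroxylase and itself a hypoxia-inducible gene, was at 9.03, 8.76 and 9.38 against 9.18, 8.86 and 8.94, a change of 0.06 ± 0.17 (adjusted p = 0.897), or -0.12 with a block for the station.

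In glycogen metabolism, Pygb, the brain form of glycogen phosphorylase, was at 13.10, 13.07 and 13.09 on the labelled transgenic arrays and at 12.81, 12.78 and 12.72 on the others. The gap between the groups was wider than the range within either. Its change of 0.31 ± 0.06 (1.24-fold, adjusted p = 0.109) had the smallest p of the members. With a trended variance its adjusted p was 0.0491, the lowest of the alternatives, of which the highest gave 0.303. Pygm, the muscle form, was at 12.72, 12.69 and 12.63 against 12.92, 12.75 and 12.82. It was lower without overlap, at -0.15 ± 0.07 (adjusted p = 0.375), and a block for the station gave -0.24. Gys1, the muscle glycogen synthase, was at 10.01, 9.90 and 9.93 against 10.26, 10.21 and 10.34. Every labelled transgenic value was below every other, at -0.33 ± 0.07 (1.25-fold lower, adjusted p = 0.121), and the second Gys1 probe set was at -0.18, also without overlap.

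The other glycogen genes overlapped between groups. Ugp2, which makes UDP-glucose, was at 12.53, 12.85 and 13.26 against 12.44, 12.64 and 12.68, and all 5 of its probe sets had positive changes, from 0.12 to 0.30. Labelled transgenic array 3 was the highest and array 1 the lowest of its group in each. The Ugp2 change was 0.10 without labelled transgenic array 3. Glycogenin (Gyg) was at 0.14 ± 0.11 and its other probe set at 0.15. Gbe1, the branching enzyme, was at -7.4e-05 ± 0.11, Pgm1, a phosphoglucomutase, at -0.11 ± 0.09, and Phka1, the muscle regulatory subunit of phosphorylase kinase, at -0.08 ± 0.17.

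**Figure D2:**
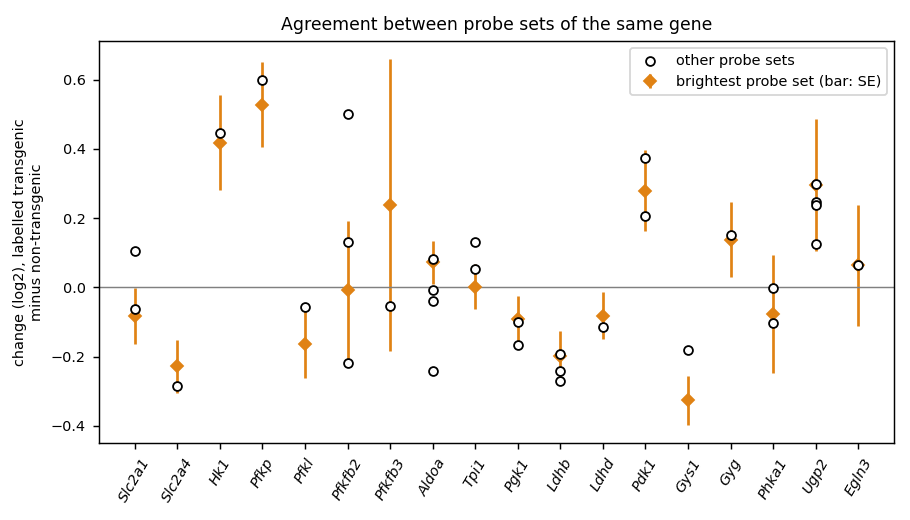
Change between groups (log2, labelled transgenic minus non-transgenic) of every tested probe set, for the members with more than 1. Diamonds are the brightest probe set with its moderated SE, open circles the others. All Ldhb, Hk1, Pfkp, Slc2a4, Gys1, Pgk1, Pdk1 and Ugp2 probe sets keep 1 sign within the gene, whereas those of Pfkfb2, Pfkfb3, Aldoa and Slc2a1 lie on both sides of 0.

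Isoform balance was followed as the difference of 2 log2 values within each array. Its level depends on the probes, so only its difference between the groups is read. Of 12 pairs chosen, 8 could be formed. The labelled transgenic arrays lay nearer to the non-muscle form for Pfkp minus Pfkm, at -4.15 ± 0.29 (SD, n = 3) against -4.88 ± 0.10 on the non-transgenic arrays, a difference of 0.73. For Hk1 minus Hk2 the values were -1.11 ± 0.13 against -1.63 ± 0.15, a difference of 0.52. Pygb minus Pygm stood at 0.40 ± 0.05 against -0.06 ± 0.07, a difference of 0.47. Groups did not overlap in any of these, nor for Ldha minus Ldhb (0.28), Slc2a1 minus Slc2a4 (0.15) and Pdk3 minus Pdk1 (-0.32).

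Each of those 6 pairs gave an exact permutation p = 0.1 (2-sided), the smallest that 3 against 3 arrays allow, and p = 0.133 after Benjamini-Hochberg adjustment over the 8 pairs, so no pair could pass. Pfkl minus Pfkm (0.04, exact permutation p = 0.6) and Pgam1 minus Pgam2 (0.02, exact permutation p = 0.8) overlapped between groups, and their sign turned under some alternatives. With other probe sets of the same genes the Pfkp pair reached 0.80, the Hk1 pair 0.55, the Ldha pair from 0.28 to 0.35 and the Slc2a1 pair from 0.15 to 0.39. With the station as a block the differences were 0.85 for Pfkp, 0.45 for Hk1, 0.51 for Pygb, 0.28 for Ldha, 0.23 for Slc2a1, -0.13 for Pdk3, 0.07 for Pfkl and 0.44 for Pgam1. The Slc2a1 pair had an exact permutation p = 0.2 after quantile normalization. In the Hk1 and Pfkp pairs the non-muscle gene made up most of the difference (for Hk1, with the station as a block, the shares were about even, at 0.22 for Hk1 and -0.23 for Hk2), in the Ldha and Slc2a1 pairs Ldhb and Slc2a4 did, in the Pdk3 pair Pdk1 did, and in the Pygb pair both genes contributed.

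**Figure D3:**
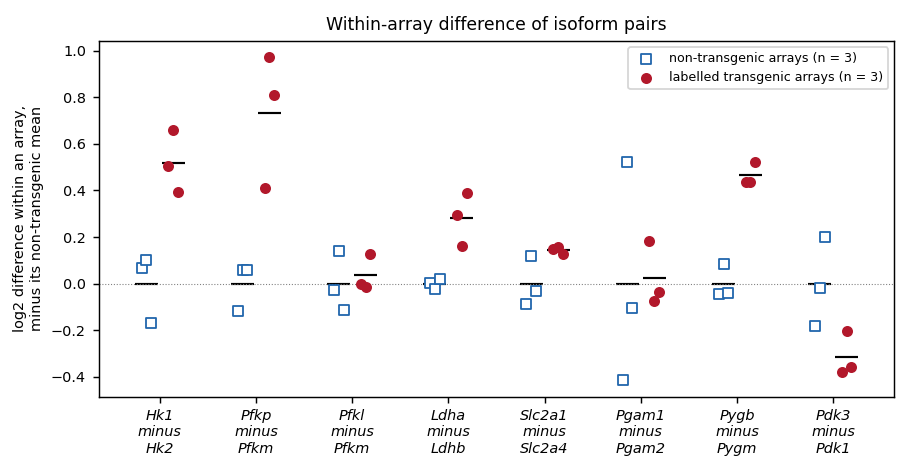
Within-array log2 difference of the 8 isoform pairs, after subtracting the pair's mean over the non-transgenic arrays. Open squares are the 3 non-transgenic arrays, filled circles the 3 labelled transgenic arrays, and black bars the group means. The Pfkp, Hk1 and Pygb pairs sit 0.73, 0.52 and 0.47 higher on the labelled transgenic arrays, while the Pfkl and Pgam1 pairs overlap.

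Promoter windows show what the members carry at their starts. RefSeq windows of assembly GRCm38.p6, from 250 bases before to 50 after a start, were found for 37 of the 39 members, 56 windows in all. They were searched on both strands for GGGCGG, the GC box bound by Sp factors, for ACGTG, the core of the element bound by hypoxia-inducible factors, and for the MEF2 consensus. ACGTG was in 48.2% of the member windows and in 19.6% of all 32851 windows, GGGCGG in 57.1% against 35.7%, and MEF2 in 3.57% against 3.19%. Some genes have several windows, and some of these overlap. Counted by gene, 23 of the 37 members had ACGTG in a window, against 21.8% of all genes with a window. For GGGCGG the count was 28, against 38.2%, and for MEF2 it was 2, against 3.70%. ACGTG also lies within the E-box CACGTG, where it is counted on each strand. Shown are Pfkp and Pygb with higher values, Pygm, Eno3 and Gys1 with lower ones, and the first Ldha window, which holds the most ACGTG matches of the members (5). Capitals mark matches to GGGCGG or ACGTG on either strand.
Pfkp, chr13:6648722-6649021, minus strand: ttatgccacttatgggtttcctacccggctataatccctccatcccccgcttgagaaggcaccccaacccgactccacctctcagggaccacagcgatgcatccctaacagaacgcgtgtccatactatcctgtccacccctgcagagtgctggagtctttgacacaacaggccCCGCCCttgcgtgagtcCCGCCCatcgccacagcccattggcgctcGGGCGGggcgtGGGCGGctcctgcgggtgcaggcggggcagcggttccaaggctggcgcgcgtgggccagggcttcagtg
Pygb, chr2:150786546-150786845, plus strand: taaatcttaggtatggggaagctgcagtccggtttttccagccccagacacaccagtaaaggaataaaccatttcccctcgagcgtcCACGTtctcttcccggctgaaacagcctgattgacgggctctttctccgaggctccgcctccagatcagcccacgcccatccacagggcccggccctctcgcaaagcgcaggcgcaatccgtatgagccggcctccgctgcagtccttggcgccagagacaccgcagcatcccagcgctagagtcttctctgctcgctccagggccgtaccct
Pygm, chr19:6384158-6384457, plus strand: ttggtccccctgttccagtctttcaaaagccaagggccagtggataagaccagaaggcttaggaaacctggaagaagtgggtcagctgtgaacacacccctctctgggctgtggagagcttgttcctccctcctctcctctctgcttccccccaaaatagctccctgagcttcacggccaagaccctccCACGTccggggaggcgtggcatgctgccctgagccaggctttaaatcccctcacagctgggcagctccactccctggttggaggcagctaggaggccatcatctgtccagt
Eno3, chr11:70656926-70657225, plus strand: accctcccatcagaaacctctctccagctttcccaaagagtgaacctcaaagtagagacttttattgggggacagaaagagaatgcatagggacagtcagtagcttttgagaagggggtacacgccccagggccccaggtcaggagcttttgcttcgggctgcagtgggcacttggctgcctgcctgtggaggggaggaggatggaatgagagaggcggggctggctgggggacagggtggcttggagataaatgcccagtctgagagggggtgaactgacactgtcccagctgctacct
Gys1, chr7:45434589-45434888, plus strand: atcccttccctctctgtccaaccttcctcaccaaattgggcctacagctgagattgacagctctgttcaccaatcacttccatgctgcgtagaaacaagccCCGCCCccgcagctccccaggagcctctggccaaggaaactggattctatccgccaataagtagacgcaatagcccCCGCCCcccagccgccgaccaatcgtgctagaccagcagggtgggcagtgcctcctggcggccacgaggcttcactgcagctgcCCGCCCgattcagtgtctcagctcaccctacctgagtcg
Ldha, chr7:46845554-46845853, plus strand: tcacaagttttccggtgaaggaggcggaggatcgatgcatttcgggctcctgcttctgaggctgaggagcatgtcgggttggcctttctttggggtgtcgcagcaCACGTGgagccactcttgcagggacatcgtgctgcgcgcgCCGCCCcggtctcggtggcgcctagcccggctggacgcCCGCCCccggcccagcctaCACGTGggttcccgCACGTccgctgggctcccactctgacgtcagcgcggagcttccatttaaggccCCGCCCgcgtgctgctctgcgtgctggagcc
The Pfkp window holds 4 GGGCGG matches and 21 CG dinucleotides, and the Pygb window 1 ACGTG and 21 CG. Those of the muscle forms Pygm and Eno3 hold 4 and 3 CG dinucleotides and no GGGCGG, with 1 ACGTG in Pygm and none in Eno3. The Gys1 window, also of a muscle enzyme, has 3 GGGCGG and 14 CG. Of the separated genes not shown, Pfkfb4 with higher values holds 4 GGGCGG, and Hk1, also higher, none in its windows. Among those with lower values Pgk1 holds 5 GGGCGG, Pfkm and Ldhb hold none, and Slc2a4 had no window. A match is a description of these letters and not a site of binding.

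Markers of some other cells differed between the groups. Of 10 fibroblast markers 7 were higher at an unadjusted p under 0.05 and none lower, with a summed level (log2) of 14.20 to 14.53 on the labelled transgenic arrays against 13.82 to 14.02. Of 9 macrophage markers, 8 were above the filter and all 8 were higher at that p, at 11.88 to 12.11 against 11.44 to 11.49, with Itgam below the filter. Fast skeletal muscle markers summed to 9.44 to 10.02 against 6.81 to 7.86, and of the 4 above the filter Mybpc2, a fast myosin-binding protein, was at 2.93 ± 0.51 (adjusted p = 0.0804). The other 3 were near 0 or negative, with Myh4 at 0.02, Atp2a1 at -0.09 and Tnni2 at -0.19, and Myh1, Myh2, Actn3, Pvalb and Tnnt3 lay below the filter. The adipocyte sum was 14.27 to 14.35 against 14.41 to 14.63. It was carried by Fabp4 alone, with Adipoq, Lep and Retn below the filter, so it is no measure of adipocytes. All 8 cardiomyocyte markers of the labelled tissue were above the filter, with sums of 17.92 to 17.95 against 17.92 to 17.98. Single markers went both ways. Ryr2 (-0.29) and Pln (-0.12) were lower and Mybpc3 (0.13) and Actn2 (0.12) higher without overlap, none of them at an unadjusted p under 0.05. The summed smooth muscle markers overlapped (13.83 to 13.93 against 13.82 to 14.11), while 7 of the 8 had negative changes and 2 were lower at that p. The summed levels of the 8 endothelial markers (12.20 to 12.45 against 12.24 to 12.38) overlapped between groups. So did the sums of neutrophil (4.60 to 6.34 against 4.61 to 5.96), lymphocyte (5.04 to 5.09 against 4.96 to 5.11), erythroid (7.47 to 8.36 against 7.86 to 8.31) and Schwann and neuron markers (6.48 to 6.80 against 6.19 to 6.79), of which Sox10 alone was higher without overlap, with Elane, Mpo, Cd3g, Cd79a, Epb42, Hba-a1 and Snap25 below the filter. The part of the fibroblast and macrophage markers in the higher Hk1, Pfkp and Pygb values was not tested. In whole tissue, fewer cells of a type and less RNA per cell cannot be told apart.

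Neighbouring steps of glucose use were read from 135 further genes, of which 107 were above the filter. None passed over all probe sets, 7 were higher at an unadjusted p under 0.05 and 22 lower (6.54% and 20.6%, against 10.4% and 7.76% of all genes), and their median change was -0.06. The lower count was 14 without labelled transgenic array 2 and also without array 3, where 5.14% and 5.31% of all genes were lower. The lower ones were most frequent in 2 lists around the mitochondrial use of glycolytic products. In the shuttles that carry cytosolic reducing equivalents into mitochondria, all 10 genes had negative changes (median -0.21) and 5 were lower at that p. The lowest p were those of the oxoglutarate carrier Slc25a11, at -0.31 ± 0.09, and the aspartate and glutamate carrier Slc25a13, at -0.36 ± 0.10. Of 13 pyruvate entry genes 5 were lower and none higher (median -0.20).

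Pdhx, a structural part of the pyruvate dehydrogenase complex, was at 10.13, 10.17 and 10.20 against 10.66, 10.51 and 10.58. Its change was -0.42 ± 0.07 (adjusted p = 0.078). Pdp2, a phosphatase that activates the complex, was at 4.85, 5.52 and 5.28 against 6.41, 6.25 and 5.99, lower without overlap at -1.004 ± 0.20 (adjusted p = 0.102). Pdk4, a kinase that inactivates it, was chosen for its spread after the values had been seen, and was at 12.64, 11.32 and 10.34 against 11.36, 12.50 and 12.82. Its arrays spread so widely within both groups that the change of -0.79 ± 0.65 became 0.07 with a block for the station.

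Among other glycogen and galactose genes, 1 of 20 was higher and 5 were lower (median -0.06), including Phkg1, the muscle catalytic subunit of phosphorylase kinase, at -1.12 ± 0.27 (adjusted p = 0.142), and Galt, of galactose entry, at -0.32 ± 0.09. Phkg1 was at 5.97, 5.36 and 4.93 against 6.76, 6.43 and 6.43. This Phkg1 probe set carries the suffix for probes that can match other sequences, so its change is uncertain. Averaged over the Phkg1 probe sets above the filter the change was -1.09. None of 8 uptake and signalling genes was higher and 2 were lower, the dim transporter Slc2a12 at -0.23 ± 0.07 and the insulin receptor substrate Irs1 at -0.26 ± 0.11 (median of the list -0.15). Irs1 was at -0.17 without labelled transgenic array 2. Of 9 other glycolysis and gluconeogenesis genes 1 was lower, the muscle fructose bisphosphatase Fbp2, at -0.81 ± 0.27 (median 0.00), and at -0.50 without labelled transgenic array 3. In the pentose phosphate and hexosamine list 1 of 13 was higher (median 0.05). It was Gfpt1, the first enzyme of hexosamine synthesis, at 8.07, 8.27 and 8.19 against 7.74, 7.67 and 7.55, a change of 0.52 ± 0.09 (adjusted p = 0.078). Averaged over the Gfpt1 probe sets above the filter the change was 0.265.

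Regulators of these pathways were mixed, with 2 of 22 higher and 4 lower (median -0.03). Among the lower were the oxygen sensor Egln1 at -0.24 ± 0.07 and the AMP-activated kinase subunit Prkab1 at -0.54 ± 0.16. The 2 higher ones were another subunit of that kinase, Prkab2, at 0.45 ± 0.16 with overlap, and Arnt at 0.41 ± 0.16 without overlap. Averaged over its probe sets above the filter, Arnt was at 0.16. Of 12 hypoxia-responsive genes outside glycolysis 3 were higher and none lower (median 0.11). The higher ones were P4ha1 and P4ha2, both collagen prolyl hydroxylase subunits, and Ndrg1. The groups overlapped for every other gene of that list. P4ha1 was at 9.003, 9.05 and 9.33 against 7.90, 8.19 and 8.24. Its change was 1.02 ± 0.13 (2.03-fold, adjusted p = 0.0646), and its adjusted p was 0.0466 when only 1 probe set per gene was fitted. Over all alternatives that p lay between 0.0359 and 0.179. Ndrg1, a stress-responsive gene, was at 0.29 ± 0.08.

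**Figure D4:**
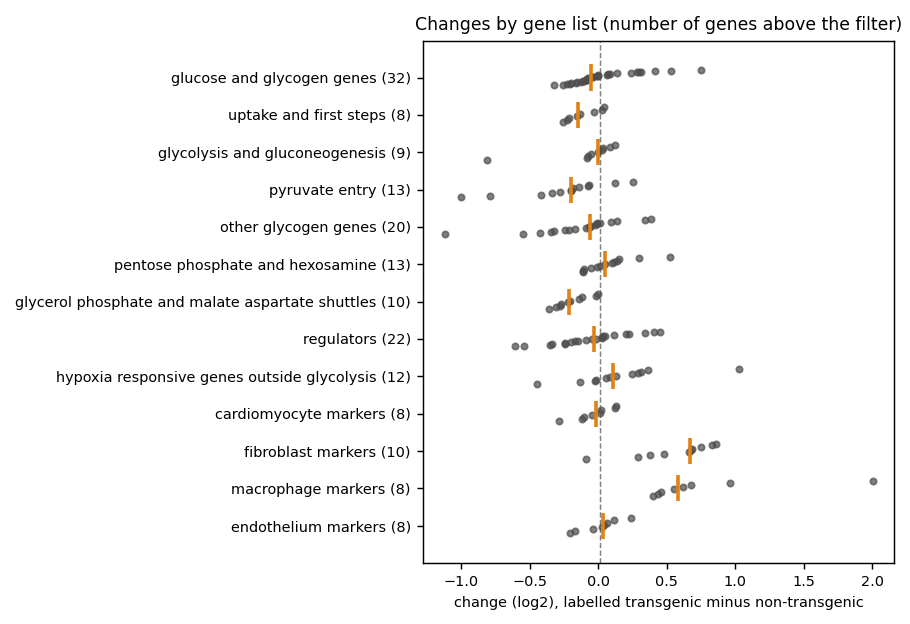
Change between groups (log2) of each gene in the member list, in the 8 lists of neighbouring pathways and in 4 marker lists. Points are genes, orange bars the list medians, and the dashed line the median of all genes at 0.01. The shuttle and pyruvate entry lists have medians of -0.21 and -0.20, and the fibroblast and macrophage markers of 0.67 and 0.58.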

How the data were processed

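The authors deposited log2 expression values per probe set and array, and per the submitters' processing notes they were made with GCRMA, whose version is not given in the sources used here. Values were used as deposited, and no pseudocount was needed. The other deposited files are instrument records, which gave station, scan order and typed names.

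Of 45101 probe sets, 64 control probe sets were left out. The platform annotation gave 34945 of the rest 1 gene, 932 several and 9160 none. A synonym that is the name of another gene was not counted. Probe sets with a mean above the median (log2 3.285) were kept. limma 3.58.1 in R 4.3.3 (lmFit, eBayes, 2-sided) was fitted to all 22518 kept probe sets of both groups, and gene rows are the brightest probe set's row of that fit. The fit was tested on simulated data.

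Named in full were members with an unadjusted p under 0.05 and no overlap, and both genes of each isoform pair, with others by range. Pfkfb3, Ugp2 and Egln3 were given in full beside these, chosen after their values were seen. For each other pathway list up to 2 such genes were named, and P4ha2, Prkab2 and Arnt were named beside these. Members, lists and tests were chosen with earlier results of these data known. Alternatives covered the filter, normalization, variance model, array weights, replicate number or station as a block, Xist as a term, probe set averaging and each array left out. A refit with 1 probe set per gene was added after seeing the data. Same-numbered arrays did not deviate together (correlations -0.083, -0.174 and -0.007), so replicate numbers were not taken to pair them. No arrays were duplicates, with at most 0.0177% of values identical between any 2.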

Additional observations from a re-analysis of the deposited data

How the results depend on the processing

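The limits are those of 6 arrays with small changes, where a single array decides several counts, where the station runs partly with the groups, and where scan order runs wholly with them. No probe sets of the members passed in the main analysis or in any alternative except a trended variance, which called 1 probe set and so 1 gene, Pygb. Over all probe sets the count of 49 was 15 without the brightness filter, 143 with a mean above log2 5, 108 with a trended variance, 0 with the replicate block, 2 with the station as a block and 0 with Xist as a covariate, and it ran from 0 to 75 with single arrays left out. The 4 higher members at an unadjusted p under 0.05 were 2 with the station as a block, and 2 to 4 with single arrays left out. They were 5 with quantile normalization, with a trended variance and with probe set averaging. The 5 lower ones were 2 with the replicate block, 1 with Xist as a covariate and 1 to 5 with single arrays left out. They were 7 with the station as a block, 6 with a trended variance and 6 without the brightness filter. Shares of all genes at that p moved too. The lower share went from 7.76% in the main fit to 10.3% with the station as a block and 6.55% with Xist as a covariate. It was 6.74% with the replicate block, 8.47% with a trended variance and 5.71% without the brightness filter. With single arrays left out it ran from 5.14% to 7.43%. The higher share, 10.4% in the main fit, was 6.97% with the station as a block and ran from 6.94% to 10.4% without single arrays. It was 9.61% with quantile normalization, 10.8% with a trended variance and 10.6% with probe set averaging. The 22 lower genes of the other pathway lists were 14 to 23 with single arrays left out. The Pfkl minus Pfkm difference was -0.0041 with Xist as a covariate and ran from -0.0175 to 0.108 with single arrays left out, and that of Pgam1 minus Pgam2 was -0.12 with that covariate and ran from -0.18 to 0.29. With the station as a block Pgam1 was at 0.29 and Pdk3 at 0.10. With single arrays left out Pgam1 ran from -0.21 to 0.16, Pgam2 from -0.14 to 0.0018 and Pdk3 from -0.10 to 0.051. The other 15 of the 18 genes that the naming rule gave kept their sign under every alternative, as did the other 6 isoform pairs. Outside that rule, Pfkfb3 ran from -0.67 to 0.69 and Egln3 from -0.12 to 0.21 over the alternatives, and Ugp2 from 0.10 to 0.47. The replicate block moved no value, since the groups are balanced over the numbers, and changed no other call. The causes were not tested.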
